A study of Mus musculus with 18 samples.

Results

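The constitutive proteasome genes were followed in the hippocampus of aged and young mice. Members were all genes whose annotated symbol begins with Psma, Psmb, Psmc, Psmd, Psme or Psmg, leaving out the immunoproteasome genes Psmb8, Psmb9 and Psmb10, on probe sets with 1 symbol. The rule gave 45 genes on 95 probe sets, of 18193 named genes and 45101 probe sets on the arrays. Of these members, 43 genes on 72 probe sets were bright enough to be tested, among 13121 genes on 27022 probe sets. The untested pair were Psma8, a testis subunit of the core, and Psmb11, a thymus subunit. Psma8 lay between 4.20 and 6.24 and Psmb11 between 4.22 and 5.62 on a scale of log2 signal with an offset of 16, used throughout, and their means were below the filter level of 5.92.

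The proteasome degrades proteins marked with ubiquitin. Its core particle is a barrel of outer alpha rings, which gate the channel, and inner beta rings, which hold the protease sites. A regulatory particle caps the barrel: its base unfolds substrates with ATPases, and its lid removes ubiquitin. Dedicated chaperones assemble each particle, and other caps, the activators, can open the core without the regulatory particle. In neurons the complex serves protein turnover at synapses, and its activity has long been studied in brain ageing.

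Expression was measured on 18 arrays, 1 per hippocampus sample, in 3 groups of 6: aged mice with impaired spatial memory, aged mice with unimpaired spatial memory, and young mice, whose memory the labels also call unimpaired. No allele, drug or other treatment is named for any group. Strain, sex, age in months and the memory test stay unnamed in these labels. The labels do not say that each sample came from its own animal, so p-values measure the spread between these samples, which may be technical.

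Several transcription factors act on proteasome promoters. Nfe2l1, which raises proteasome genes when the complex is inhibited, binds antioxidant response elements, and CCAAT boxes are common in these promoters. A RefSeq table of assembly GRCm38.p6 held promoters for 35 of the 43 genes left without Psmc3ip and Psme3ip1, which only share the prefix. In the 250 bases before the start, on both strands, the core of the antioxidant response element, TGACNNNGC, stood in 5 of 37 promoters (13.5%), against 10.2% of all 32851 promoters in the table. CCAAT stood in 13 of the 37 (35.1%), against 33.8% of all. No member's promoter held both. The 60 bases before the start are shown for the 3 members with TGACNNNGC nearest to it, which include 2 of the catalytic genes described next. Capitals mark the match, and each is read 5′ to 3′ on the gene's strand. Psmb5 lies at chr14:54617996-54618055 on the minus strand, Psmb6 at chr11:70525297-70525356 on the plus strand and Psmd9 at chr5:123228130-123228189 on the plus strand.
Psmb5: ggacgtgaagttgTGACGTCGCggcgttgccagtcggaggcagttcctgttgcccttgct
Psmb6: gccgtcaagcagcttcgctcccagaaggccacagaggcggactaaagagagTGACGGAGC
Psmd9: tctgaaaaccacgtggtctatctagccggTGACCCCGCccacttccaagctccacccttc
A match of letters is a description and not a binding site.

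On its brightest probe set, no proteasome gene was called different between the groups, and there the groups overlapped for every member. With each gene represented by its brightest probe set, 0 of 43 members passed limma's test at an adjusted p under 0.05 in any of the 4 comparisons. Between aged impaired and aged unimpaired samples, 0.00762% of all tested genes passed. The same share was 0.145% between aged unimpaired and young samples, 1.9% between aged impaired and young samples, and 1.19% between both aged groups and young. At an unadjusted p under 0.05 the members numbered 3, 0, 5 and 1 of 43 in these comparisons, or 6.98%, 0%, 11.6% and 2.33%, against 8.06%, 8.45%, 16.2% and 13.9% of all tested genes. The comparisons share samples and are not independent of each other. In bulk tissue, fewer cells of a type and less RNA per cell cannot be told apart.

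More members were higher than lower in each comparison, with no test made of that count. Members with a higher mean in the first-named group numbered 27, 27, 28 and 32 of 43 in the same order of comparisons, against 52.3%, 47.7%, 49.2% and 48% of all tested genes. Groups without overlap were seen in 0 of 43 members each time, against 0.556%, 0.884%, 2.32% and 0.381% of all genes. Over the 72 member probe sets taken singly, 0, 0, 1 and 0 were called, against 0.0111%, 0.137%, 1.63% and 0.947% of all probe sets. At an unadjusted p under 0.05 these numbered 5, 0, 8 and 6 of 72, against 8.09%, 8.19%, 15.8% and 13.4%.

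Each interval bounds the change of 1 gene on its brightest probe set in 1 comparison, and not of all members jointly. The 95% interval of the difference lay within 0.5 either side of 0 on the log2 scale, a fold of 1.41, for 41 of 43 members between aged impaired and aged unimpaired samples, where 77.5% of all tested genes met that limit. Between aged unimpaired and young samples 41 members met it, against 77.2% of all genes. Between aged impaired and young samples 40 did, against 73.2%, and between both aged groups and young 41 did, against 81%. Brightness was not matched in these shares. The median level percentile among all tested genes was 92.0 for core and 89.3 for regulatory genes. On the brightest probe sets, the members outside this limit in 1 or more comparisons were Psmc4, Psmg3 and Psmg4. Some dimmer probe sets of other members went past it. The second Psmb4 probe set reached 0.60 between aged unimpaired and young samples. Dim probe sets could go much further. The interval of a Psmb1 probe set with a mean level of 7.50 reached −1.56 between aged impaired and young samples.

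**Figure D1:**
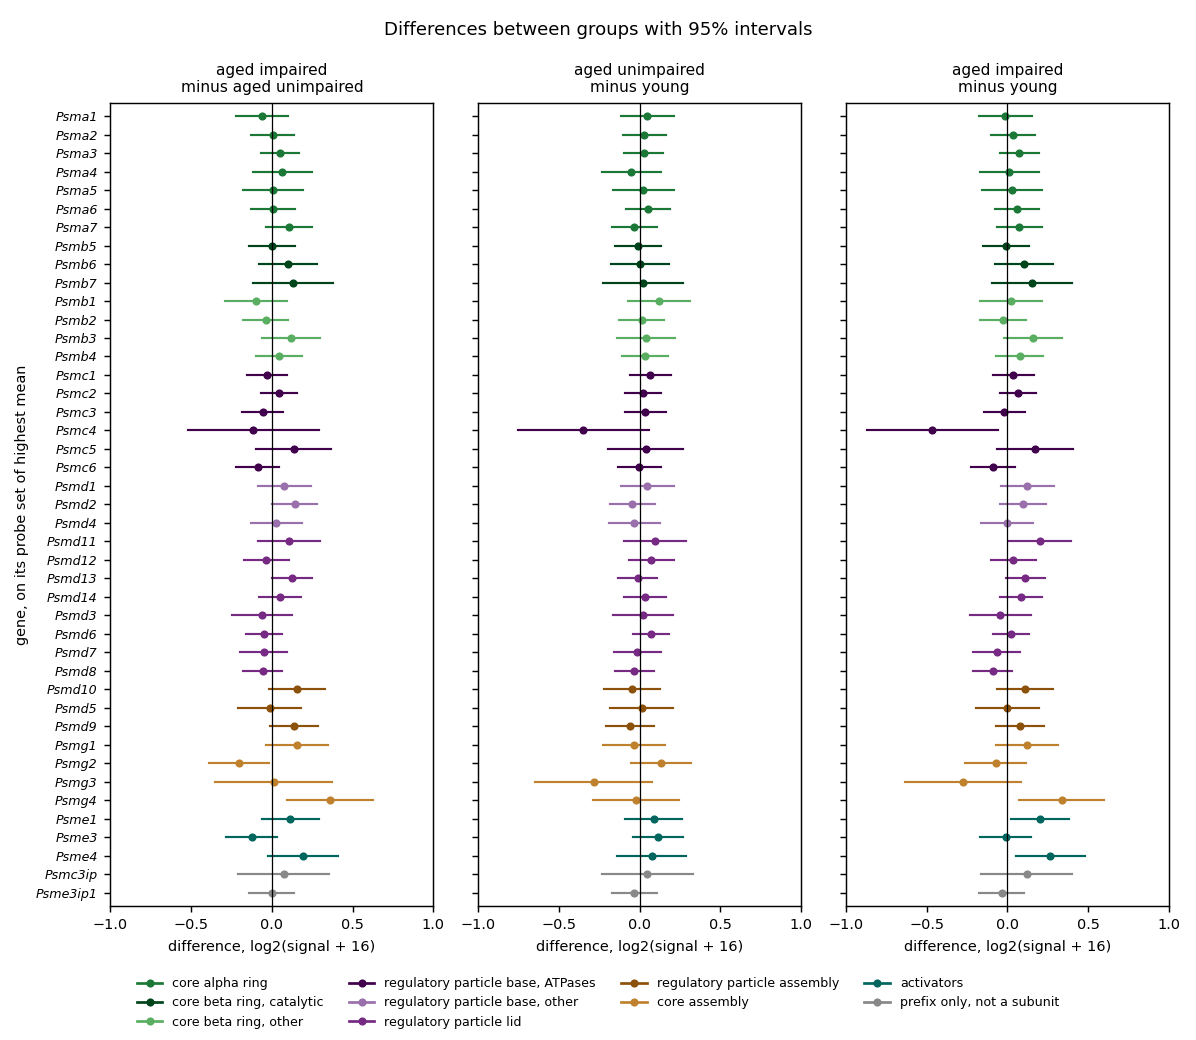
Difference in log2(signal + 16) with its 95% interval for the 43 tested members, each represented by its brightest probe set, by role; the panels give aged impaired minus aged unimpaired, aged unimpaired minus young, and aged impaired minus young. Most intervals cross 0, and Psmc4 and Psmg3 have the widest intervals.

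The core particle had 14 tested genes. Between aged impaired and aged unimpaired samples their median difference was 0.026 on the log2 scale, with 10 of 14 higher in the impaired group, beside a median of 0.0067 over all tested genes. It was 0.024 between aged unimpaired and young samples (11 of 14 higher, all genes −0.0075) and 0.048 between aged impaired and young samples (11 of 14 higher, all genes −0.0030). On the brightest probe sets, every core gene's interval lay within 0.5 of 0 in all 4 comparisons. The lowest adjusted p of any core gene there was 0.382 (limma), for Psmb3 between aged impaired and young samples. The second Psmb3 probe set gave 0.28 ± 0.085 in that comparison (SE, n = 6 each, adjusted p = 0.107, limma). Between the aged groups it gave 0.20 ± 0.085 (adjusted p = 0.555, limma).

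The 3 catalytic genes gave the following levels. Psmb5, which carries the chymotrypsin-like site, had a lowest, median and highest level of 12.17, 12.26 and 12.45 in aged impaired samples, 12.16, 12.28 and 12.46 in aged unimpaired samples, and 12.17, 12.30 and 12.38 in young samples. The 3 groups covered almost the same range. The aged impaired group differed from the aged unimpaired group by −0.00094 ± 0.067 (SE, n = 6 each), with an interval of −0.14 to 0.14, and from the young group by −0.0092.

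Psmb6, which carries the caspase-like site, had levels of 11.45, 11.76 and 11.89 in aged impaired samples, 11.45, 11.64 and 11.83 in aged unimpaired samples, and 11.53, 11.63 and 11.78 in young samples. The groups overlapped throughout. The difference was 0.10 ± 0.085 between aged impaired and aged unimpaired samples (SE, n = 6 each; adjusted p = 0.791, limma) and 0.0023 between aged unimpaired and young samples.

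Psmb7, which carries the trypsin-like site, had levels of 13.23, 13.38 and 13.61 in aged impaired samples, 12.80, 13.37 and 13.47 in aged unimpaired samples, and 13.03, 13.25 and 13.56 in young samples. A single aged unimpaired sample, replicate 2, lay below all others. The difference between the aged groups was 0.13 ± 0.12 (SE, n = 6 each; adjusted p = 0.809, limma), with an interval of −0.12 to 0.38, and 0.033 without that sample.

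Among the other core genes, the 7 tested alpha ring genes are given first on their brightest probe sets. Between the aged groups they differed by −0.060 (Psma1) to 0.11 (Psma7). Between aged impaired and young samples they differed by −0.013 (Psma1) to 0.075 (Psma3). Their dimmer tested probe sets ran from −0.15 (Psma3) to 0.24 (Psma1) in that comparison. Among these, the second Psma7 probe set gave 0.22 ± 0.087 (SE, n = 6 each, adjusted p = 0.213, limma). On its brightest probe set Psma3 held among the steadiest levels. They were 12.72, 12.81 and 12.97 in aged impaired samples and 12.67, 12.78 and 12.82 in aged unimpaired samples. Young samples had 12.67, 12.76 and 12.79. Its dimmer tested probe set, near the filter level, ran from 4.77 to 6.78 in aged impaired samples. Psmb1, Psmb2, Psmb3 and Psmb4 are the beta ring genes without a protease site. On their brightest probe sets they ran from −0.096 (Psmb1) to 0.12 (Psmb3) between the aged groups.

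**Figure D2:**
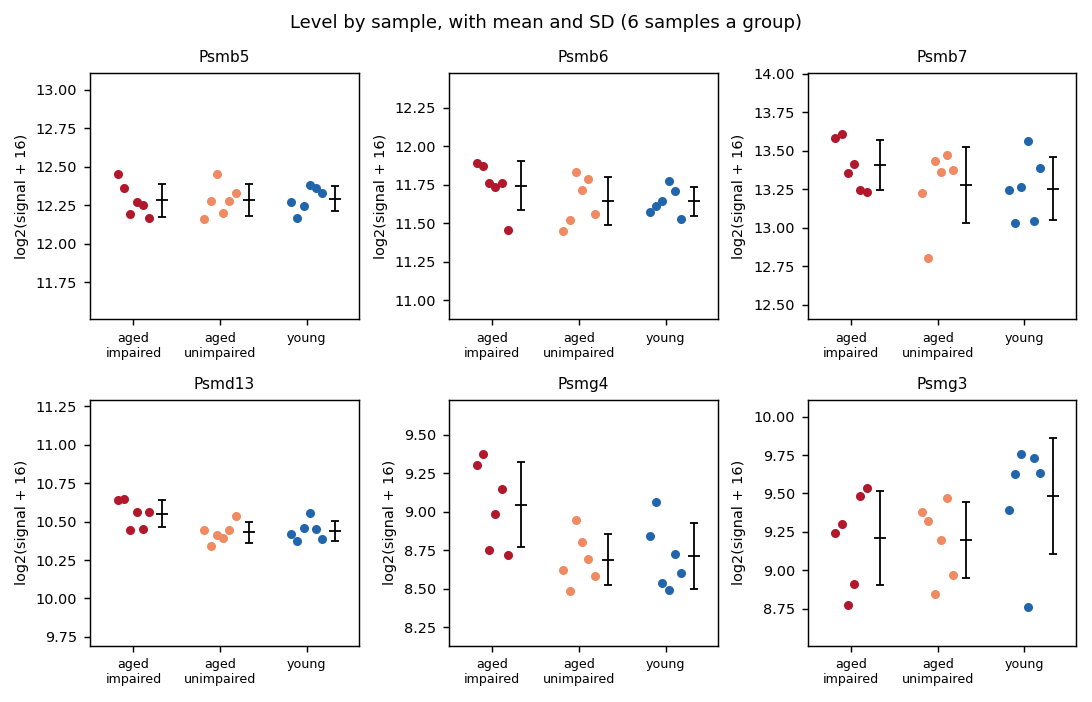
Level of 6 members in each sample as log2(signal + 16), with the group mean and SD at the side (6 samples a group). Aged impaired, aged unimpaired and young run from left to right. Each axis is centred on its own gene, and all panels span the same number of log2 units. The groups overlap in every panel, and Psmg4 has its 2 highest samples in the aged impaired group, at 9.37 and 9.31.

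The regulatory particle had 17 genes, all tested. Their median difference was −0.029 between aged impaired and aged unimpaired samples, with 8 of 17 higher in the impaired group, beside 0.0067 over all tested genes. Leaving out 1 sample at a time, that median ran from −0.042 to 0.0071, so its sign was not stable. With all samples, the regulatory median was 0.020 between aged unimpaired and young samples (10 of 17 higher). It was 0.037 between aged impaired and young samples (10 of 17 higher). No test was made of the core against the regulatory particle. On the brightest probe sets, the intervals of 16 of the 17 genes lay within 0.5 of 0 in each comparison. Psmc4 was the exception.

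On the brightest probe sets, the regulatory genes also held the members that varied least. Psmc2, a base ATPase, had levels of 12.36, 12.53 and 12.58 in aged impaired samples, 12.39, 12.44 and 12.53 in aged unimpaired samples, and 12.38, 12.44 and 12.48 in young samples. Psmd6, a lid subunit, had 12.06, 12.12 and 12.25 in aged impaired samples, 12.09, 12.21 and 12.28 in aged unimpaired samples, and 12.07, 12.11 and 12.16 in young samples. Their SDs within groups were 0.059 and 0.061. The median SD within groups was 0.111 for core genes and 0.0944 for regulatory genes, against 0.183 over all tested genes. Brightness was not matched in that comparison. Psmd14, the lid's deubiquitinase, differed by 0.050 ± 0.061 between the aged groups, and Psmd4, a ubiquitin receptor, by 0.028 ± 0.076 (SE, n = 6 each).

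Psmd13 and Psmd2 had the lowest unadjusted p in this particle between the aged groups. Psmd13, a lid subunit, had levels of 10.44, 10.57 and 10.64 in aged impaired samples, 10.34, 10.43 and 10.54 in aged unimpaired samples, and 10.37, 10.44 and 10.56 in young samples. The impaired samples sat in the upper part of a shared range. The difference between the aged groups was 0.12 ± 0.058 (SE, n = 6 each; adjusted p = 0.612, limma), and its dimmer probe sets gave 0.12 ± 0.073 and −0.12 ± 0.18. Psmd2, the base subunit that docks ubiquitin shuttles, had 11.95, 12.06 and 12.28 in aged impaired samples, 11.83, 11.93 and 12.09 in aged unimpaired samples, and 11.89, 12.01 and 12.07 in young samples. Its difference between the aged groups was 0.14 ± 0.067 (adjusted p = 0.619, limma).

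Psmc4, another base ATPase, had the largest difference of any member, and its probe sets disagreed. On the brightest probe set the levels were 10.84, 11.28 and 11.81 in aged impaired samples, 10.80, 11.36 and 12.13 in aged unimpaired samples, and 11.45, 11.78 and 12.05 in young samples. Samples were scattered widely within both aged groups, and all groups overlapped. The difference from young was −0.46 ± 0.19 in aged impaired samples (adjusted p = 0.248, limma), −0.35 ± 0.19 in aged unimpaired samples (adjusted p = 0.670) and −0.41 ± 0.17 over both aged groups (adjusted p = 0.301).

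The second Psmc4 probe set held 10.78, 10.85 and 10.91 in aged impaired samples, 10.85, 10.93 and 11.02 in aged unimpaired samples, and 10.74, 10.90 and 10.95 in young samples. All 3 groups stayed in a narrow band. The difference from young was −0.029 ± 0.055 in aged impaired samples and 0.052 ± 0.055 in aged unimpaired samples (SE, n = 6 each). The SD within groups was 0.355 on the brightest Psmc4 probe set, the widest of all tested members. The low Psmc4 signal in aged samples was therefore seen on 1 of its 2 tested probe sets.

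**Figure D3:**
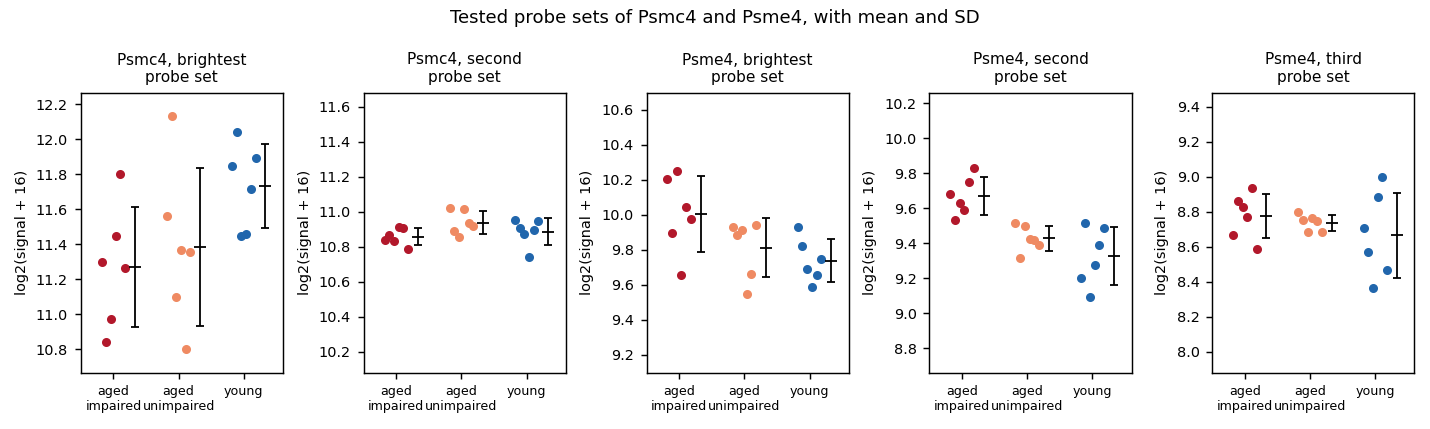
Level by sample on each tested probe set of Psmc4 and Psme4 as log2(signal + 16), with group mean and SD (6 samples a group), aged impaired, aged unimpaired and young from left to right; all panels span the same number of log2 units. Psmc4 is scattered on its brightest probe set and tight on the second, and on the second Psme4 probe set the aged impaired samples, at 9.53 to 9.83, lie above the others.

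The assembly factors had 7 genes, with a median difference of 0.13 between aged impaired and aged unimpaired samples (5 of 7 higher), −0.032 between aged unimpaired and young samples (2 of 7 higher) and 0.077 between aged impaired and young samples (4 of 7 higher). Psmg4, which pairs with Psmg3 to help build the alpha ring, had the lowest unadjusted p of all members between the aged groups, 0.0109. Its levels were 8.72, 9.07 and 9.37 in aged impaired samples, 8.49, 8.66 and 8.95 in aged unimpaired samples, and 8.49, 8.67 and 9.06 in young samples. Some aged impaired samples lay above every sample of the other groups, and the rest overlapped with them. The difference was 0.36 ± 0.13 against aged unimpaired (adjusted p = 0.481, limma) and 0.34 ± 0.13 against young (adjusted p = 0.197). Without aged impaired replicates 1 and 2, its 2 highest samples, these became 0.21 and 0.19.

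Psmg3 had levels of 8.78, 9.27 and 9.54 in aged impaired samples, 8.85, 9.26 and 9.47 in aged unimpaired samples, and 8.76, 9.63 and 9.76 in young samples. A single young sample, replicate 4, was the lowest of all 18. The difference between aged unimpaired and young samples was −0.29 ± 0.17 (adjusted p = 0.700, limma), and −0.43 without that sample (adjusted p = 0.416).

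Psmg2, the partner of Psmg1 in alpha ring assembly, had 9.89, 9.96 and 10.32 in aged impaired samples, 10.13, 10.23 and 10.38 in aged unimpaired samples, and 9.86, 10.19 and 10.25 in young samples. The aged impaired samples were mostly below the aged unimpaired ones, with overlap. The difference was −0.20 ± 0.090 between the aged groups (adjusted p = 0.583, limma) and 0.13 ± 0.090 between aged unimpaired and young samples, while its second probe set gave 0.069 ± 0.10 and −0.076 ± 0.10.

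The chaperones of the regulatory particle's base are given on their brightest probe sets. Psmd10 and Psmd9 had a higher mean in the aged impaired group, and Psmd5 hardly differed. A dimmer Psmd9 probe set went the other way, with means of 7.50 in aged impaired and 7.57 in aged unimpaired samples. Psmd10 differed between the aged groups by 0.16 ± 0.083, Psmd9 by 0.13 ± 0.071 and Psmd5 by −0.014 ± 0.093 (SE, n = 6 each). None passed limma's test, with adjusted p from 0.656 to 0.983. The pair that share the prefix only, Psmc3ip, a factor of meiotic recombination, and Psme3ip1, a partner of Psme3, differed by 0.072 and 0.00015.

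The activators had 3 tested genes, Psme1, Psme3 and Psme4. Their median difference between aged impaired and young samples was 0.20, beside −0.0030 over all tested genes, and 2 of 3 were higher. Psme2, the partner of Psme1 in an interferon-inducible cap, was not a member, since its probe set also carries another symbol.

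Psme1 had levels of 10.60, 10.84 and 10.98 in aged impaired samples, 10.56, 10.67 and 10.90 in aged unimpaired samples, and 10.50, 10.59 and 10.82 in young samples. The groups overlapped. The difference from young was 0.20 ± 0.084 in aged impaired samples (SE, n = 6 each; adjusted p = 0.250, limma). Psme3, which forms a nuclear cap, had 10.68, 10.79 and 11.07 in aged impaired samples, 10.79, 10.97 and 11.05 in aged unimpaired samples, and 10.75, 10.81 and 11.06 in young samples. It differed by 0.11 ± 0.075 between aged unimpaired and young samples (adjusted p = 0.734).

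Psme4, a nuclear cap known for the breakdown of acetylated histones, gave the one call among the members' probe sets. On its brightest probe set it had 9.65, 10.01 and 10.25 in aged impaired samples, 9.55, 9.90 and 9.94 in aged unimpaired samples, and 9.59, 9.72 and 9.93 in young samples. The impaired group reached higher but overlapped both others. The difference from young was 0.27 ± 0.10 (SE, n = 6 each; adjusted p = 0.204, limma).

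The second Psme4 probe set, picked out here with its value in view, held 9.53, 9.66 and 9.83 in aged impaired samples, 9.32, 9.42 and 9.52 in aged unimpaired samples, and 9.09, 9.33 and 9.51 in young samples. All 6 aged impaired samples were above all aged unimpaired and all young samples. Against young the signal rose by 0.34 ± 0.078, or 1.27-fold (adjusted p = 0.0337, limma). It was the 1 call of 72 named above. Against aged unimpaired the difference was 0.24 ± 0.078 (adjusted p = 0.428).

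The dimmest tested Psme4 probe set had levels of 8.59, 8.80 and 8.94 in aged impaired samples, 8.68, 8.75 and 8.80 in aged unimpaired samples, and 8.36, 8.64 and 9.00 in young samples. There the young samples enclosed both aged groups. Its difference between aged impaired and young samples was 0.11 ± 0.096 (SE, n = 6 each). Groups without overlap were seen in 1 of 72 member probe sets between the aged groups (0.525% of all tested probe sets) and in 1 of 72 between aged impaired and young samples (2.01% of all), each time the second Psme4 probe set. It was 0 of 72 between aged unimpaired and young samples (0.766% of all) and between both aged groups and young (0.303% of all). The call was lost, with the same sign, in 13 of 32 alternative settings. Among them were leaving out aged impaired replicate 1, 3, 5 or 6 or young replicate 1, 3, 4 or 5 in turn, which gave an adjusted p of 0.0534 to 0.0810. Over all settings the adjusted p ran from 0.0171 to 0.214.

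The tested probe sets of a gene were also compared by the sign of their differences only. A sign counted however small the difference, and probe sets near the filter level were included. The matching share over all tested genes was not worked out, so the counts given here do not set the family apart. Of the 20 members with several tested probe sets, 11 had differences in both directions between aged impaired and aged unimpaired samples, 9 between aged unimpaired and young samples, and 11 between aged impaired and young samples.

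Samples varied more within the aged impaired group than the groups differed, and most core genes moved together in this. All 14 core genes were above their own mean over the 18 samples in aged impaired replicate 1, and 12 of 14 in replicate 2. Over all tested genes, 52.0% and 52.1% were above their own mean in those samples. At the other end, 2 of 14 core genes were above their mean in aged impaired replicate 6 and 1 of 14 in aged unimpaired replicate 1.

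The mean deviation of the core genes was 0.18, 0.14, −0.011, −0.00074, −0.015 and −0.13 in aged impaired replicates 1 to 6. It lay between −0.076 and 0.061 in aged unimpaired samples and between −0.070 and 0.053 in young samples. Its SD was 0.116 in aged impaired, 0.0570 in aged unimpaired and 0.0432 in young samples. In replicates 1 and 2 of the aged impaired group, 13 and 14 of 17 regulatory genes were above their mean, with mean deviations of 0.067 and 0.079, and 6 of 7 assembly factors in each, with 0.20 and 0.18. Psmb4 read 12.98 and 13.08 in these samples, against at most 12.78 in the other aged impaired samples, and Psmb3 read 12.18 and 12.28, against at most 11.95.

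Both samples had the highest ratios of 3′ to 5′ control signal in their group, 0.34 and 0.37 on the log2 scale, where aged impaired samples ran from 0.24 to 0.37, aged unimpaired from 0.28 to 0.43 and young from 0.21 to 0.42. With that ratio as a covariate, the median core difference was 0.036 between the aged groups. Without these samples, a setting chosen after seeing the data, the median core difference became −0.030 between the aged groups and −0.011 between aged impaired and young samples, and 0 members passed in each comparison.

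**Figure D4:**
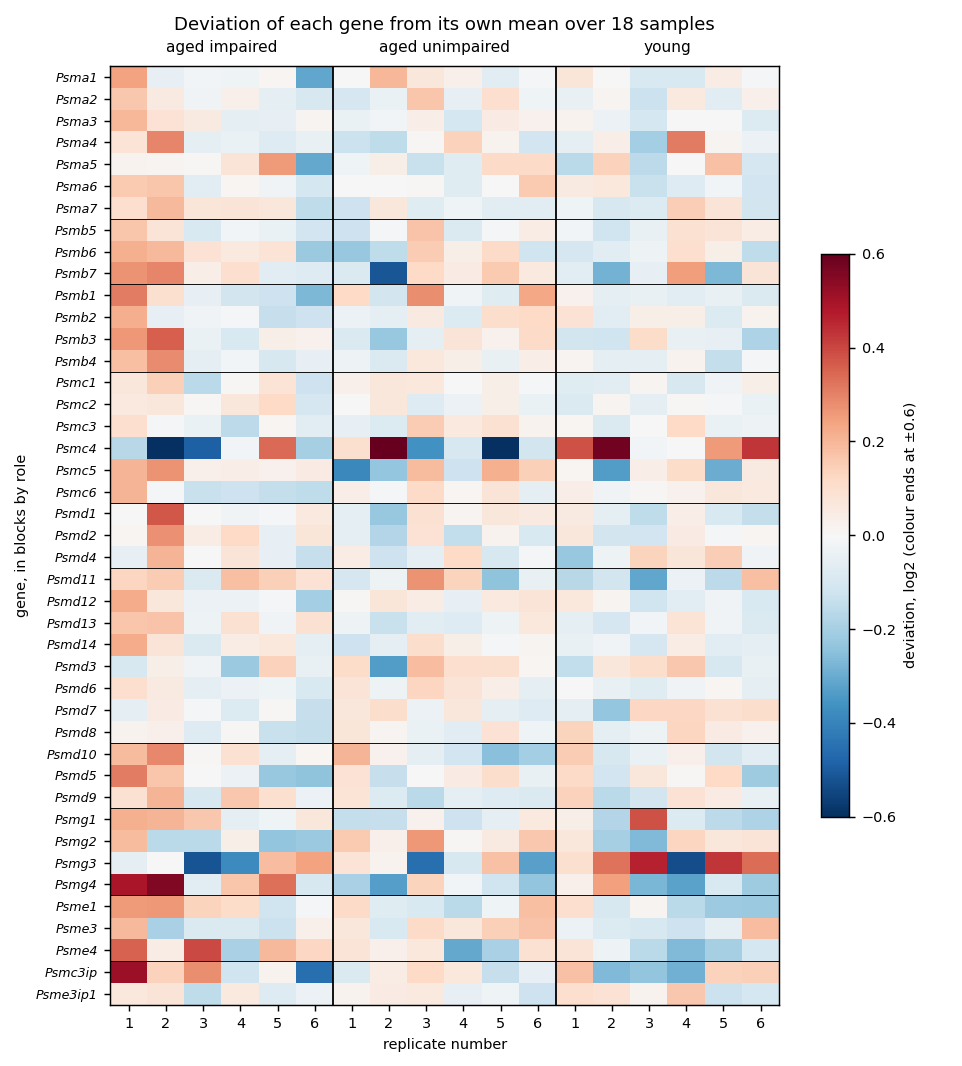
Deviation of each tested member from its own mean over 18 samples (log2 units, red above and blue below, colours ending at 0.6 either side); rows are genes in blocks by role, columns are samples in the order aged impaired, aged unimpaired, young. The core rows are mostly red in aged impaired replicates 1 and 2, and Psmc4 and Psmg3 hold the strongest colours in many samples.

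**Figure D5:**
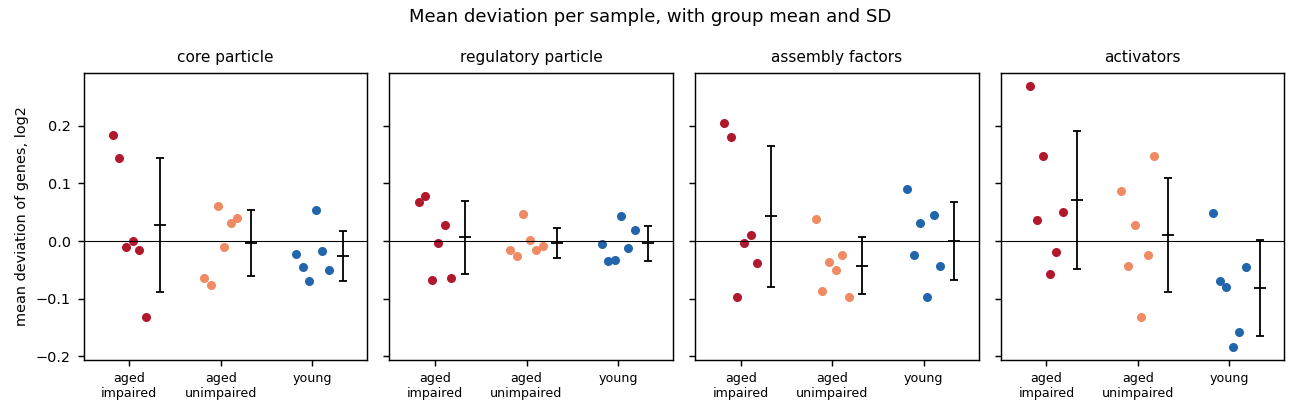
Mean deviation of core, regulatory, assembly and activator genes in each sample (log2 units), with group mean and SD (6 samples a group), aged impaired, aged unimpaired and young from left to right. Core values of aged impaired samples run from −0.13 to 0.18, a wider span than in the other groups.

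Other genes of the pathway were set beside the members from lists of known function. Of the 3 immunoproteasome genes, whose products replace the catalytic subunits, 0 passed in any comparison. Psmb8, the counterpart of Psmb5, had levels of 7.54, 7.85 and 8.32 in aged impaired samples, 7.43, 7.68 and 8.48 in aged unimpaired samples, and 6.67, 7.22 and 7.58 in young samples. Most aged samples were above most young ones. The difference from young was 0.71 ± 0.19 in aged impaired samples (SE, n = 6 each; adjusted p = 0.0722, limma) and 0.60 ± 0.19 in aged unimpaired samples (adjusted p = 0.355). Psmb9 differed by 0.47 ± 0.23 and Psmb10 by 0.071 ± 0.086 between aged impaired and young samples.

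Immunoproteasome genes are expressed by microglia among other cells, and microglia markers were also higher in aged samples. Of 15 tested microglia markers of 16 listed, 11 rose and 0 fell in aged impaired against young samples, and 3 rose and 0 fell in aged unimpaired against young samples. Their mean level was 9.98 to 10.49 in aged impaired, 9.88 to 10.42 in aged unimpaired and 9.36 to 9.62 in young samples. The part of microglia in the Psmb8 values was not tested.

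Of 14 listed symbols of proteasome cofactors, older names included, 10 were tested and 0 rose or fell in any comparison. Their median difference was −0.035 between the aged groups, 0.027 between aged unimpaired and young samples and −0.067 between aged impaired and young samples. Nfe2l1, the factor named above, differed between the aged groups by 0.074 ± 0.13, and Pomp, a chaperone that completes the core, by −0.0096 ± 0.065 (SE, n = 6 each). Usp14, a deubiquitinase that docks on the regulatory particle, had the lowest adjusted p of the list between the aged groups, 0.602 (limma), with a difference of −0.16 ± 0.074.

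Of 20 listed symbols of ubiquitin and substrate delivery, 12 were tested and 0 rose or fell. Their medians were −0.0060, 0.0056 and −0.024 in the same order of comparisons. Ufd1, a cofactor of the segregase that extracts ubiquitin-marked proteins, differed by −0.12 ± 0.055 between the aged groups, which did not overlap (0.556% of all tested genes did not), and missed the threshold (adjusted p = 0.583, limma). Faf2, another cofactor of that enzyme, differed by −0.38 ± 0.12 between aged unimpaired and young samples (adjusted p = 0.355).

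Neuron markers checked the tissue: 14 of 15 listed were tested, 0 rose or fell, and their mean level was 13.28 to 13.38 in aged impaired, 13.34 to 13.48 in aged unimpaired and 13.24 to 13.51 in young samples. Choroid plexus markers, from tissue next to the hippocampus, varied widely within every group, at 7.27 to 10.48 in aged impaired, 6.80 to 10.37 in aged unimpaired and 7.31 to 10.27 in young samples, and 0 of 17 tested passed. Of 14 tested myelin markers 3 rose, and of 12 tested astrocyte markers 1 rose, in aged impaired against young samples.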

How the data were processed

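The authors deposited 1 table of linear probe set intensity. The submitters' processing notes name MAS5 without a version, and the labels' protocols give biotin labelling of total RNA. Median intensity per array was 23.5 to 30.5 as deposited. Precision is limited by how many arrays there are.

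Here arrays were brought to a common trimmed mean of 500 (2% trimmed per end), and log2 was taken after adding 16, so changes of dim genes are understated. Tests left out 64 control probe sets and the 40% of the rest with the lowest mean. Group means of all 18 samples were compared with limma 3.58.1 (R 4.3.3) and empirical Bayes, with Benjamini-Hochberg adjustment over 27022 probe sets and tests of both sides; it was tested on simulated data. Symbols are those of the platform annotation (34945 probe sets with 1 symbol, 932 with several, 9160 with none), and a gene is represented by its brightest probe set. Apart from the level percentiles, the filter and the choice of the brightest probe set, no probe set's level is set against another's.

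Described in full were the 3 catalytic genes, any member called, and the 4 members of lowest unadjusted p in each comparison. Other genes are named as examples of their role, and these, with the second Psme4 probe set, were chosen after their values were seen. The members, lists and tests were chosen with earlier results of these data known. Replicate numbers were checked as pairs: deviations of the 18 same-numbered pairs correlated at −0.247 to 0.0957. That gave no sign of pairing, though the check could miss a small effect shared by same-numbered samples. Alternatives changed the normalization, offset, filter, covariates, moderation, probe set choice and samples.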

Additional observations from a re-analysis of the deposited data

Results flagged for a closer look

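In each group of 6, the gap between an extreme sample and its nearest neighbour was set against the group's whole range and compared with Dixon's critical value. Of 141 sets of 6, 11 passed, where chance gives about 1 in 20. In aged impaired samples, replicate 6 was low for Psma7 at 11.39 and for Psmb6 at 11.45, and replicate 3 was low for Psmd11 at 11.85. In the same group, replicate 1 was high for Psmb2 at 11.42, and replicate 2 was high for Psmd1 at 11.94. In aged unimpaired samples, replicate 2 was low for Psmb7 at 12.80 and for Psmd3 at 10.40, and replicate 6 was high for Psma6 at 12.86. In young samples, replicate 1 was high for Psmb1 at 11.99, replicate 6 was high for Psme3 at 11.06, and replicate 4 was low for Psmg3 at 8.76.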

How the results depend on the processing

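The count of members called stayed at 0 in every setting for 3 of the comparisons, with lowest adjusted p of 0.337 between the aged groups, 0.352 between aged unimpaired and young samples, and 0.120 between both aged groups and young. Between aged impaired and young samples it became 1 when only probe sets without a suffix stood for genes, since Psme4 then stands on its second probe set, at 0.34 with an adjusted p of 0.0337. With the sample number as a replicate block the count was 0 in each comparison. Only 2 of 18 samples correlated best with their own number, and no same-numbered pair had a correlation above 0.1.

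For the second Psme4 probe set, the adjusted p was 0.0848 with the replicate block, 0.0902 with no filter, 0.0940 with only the groups compared, 0.214 with myelin minus neuron markers as a covariate, and 0.0574 without aged impaired replicates 1 and 2. The regulatory median between aged impaired and young samples became −0.016 with the mean of all tested probe sets and −0.021 without aged impaired replicates 1 and 2. Between both aged groups and young it became −0.013 with the myelin minus neuron covariate.

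None of the differences that turned sign passed the test before or after. With the myelin minus neuron covariate, Psmb7 gave −0.14 between the aged groups, −0.16 between aged impaired and young samples, −0.020 between aged unimpaired and young samples and −0.089 between both aged groups and young. Psmc4 gave 0.0024 between aged impaired and young samples with that covariate. Psmb5 between the aged groups became 0.0061 with the 3′ to 5′ covariate and 0.011 with quantile normalization. Psmb6 between aged unimpaired and young samples became −0.029 with the 3′ to 5′ covariate, −0.016 with the choroid plexus covariate and with quantile normalization, and −0.0064 with the myelin minus neuron covariate. Psmb7 in that comparison became −0.0076 with the 3′ to 5′ covariate. With only probe sets without a suffix, Psmc4 gave 0.052 between aged unimpaired and young samples and 0.011 between both aged groups and young, Psmd13 gave −0.12 between the aged groups, and Psmg2 gave 0.069 between the aged groups and −0.076 between aged unimpaired and young samples. These last rest on other probe sets by construction. Elsewhere the cause was not tested.

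Leaving out 1 sample at a time, Psmb5 ranged from −0.035 to 0.033 between the aged groups, −0.043 to 0.013 between aged impaired and young samples, −0.043 to 0.016 between aged unimpaired and young samples, and −0.034 to 0.0085 between both aged groups and young. Between aged unimpaired and young samples, Psmb6 ranged from −0.035 to 0.041 and Psmb7 from −0.022 to 0.12. Over all settings 1274 values kept their direction and their side of the threshold, or moved by less than the spread between samples. Another 46 turned sign, 13 lost a call, 1 gained a call, and 4 medians or counts moved further. Core and regulatory medians were judged by that spread alone, so a median that turned sign could be among the 1274. For some of the 1274 the difference could not move. Such settings were the probe set choice where a gene's probe set stayed the same, and leaving out a sample from outside the comparison.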
